A study of Mus musculus with 8 samples.

Results

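The genes described here are 36 mouse genes of fatty acid and cholesterol synthesis, chosen by symbol from a table of 49671 genes. They are 5 genes grouped as SREBP regulators, with the lipogenic gene Thrsp listed among them, and 5 genes of fatty acid synthesis. The others are 7 elongases, 5 desaturases, 5 genes of glycerolipid assembly and 9 sterol synthesis enzymes. Each symbol was found in the table with a single row, and 34 of the 36 had enough reads to be tested. The measurements were bulk RNA-seq values of female mouse mammary gland cells that had been sorted by flow cytometry, in 8 libraries of 4 groups with 2 libraries each. All sorted cells were negative for CD45, CD31 and CD140a, which are surface proteins of blood cells, endothelium and fibroblasts. Cells that were positive for CD24 and low for CD29 are called luminal here, and cells that were positive for CD24 and high for CD29 are called basal. The CD1 luminal and CD1 basal groups came from CD1 mice, for which the labels name no transgene. The DNp63 luminal and DNp63 basal groups were the GFP-positive cells of K8rtTA/TetOCre/Rosa26-DNp63-IRES-GFP mice. In these mice the keratin 8 promoter drives a transactivator that needs doxycycline, the transactivator switches on Cre, and Cre opens a cassette for DNp63 and GFP at the Rosa26 locus. DNp63 is the short form of the transcription factor p63, which is normally found in basal epithelium. The sources used here give neither the age at collection nor the doxycycline schedule of these animals, and the mice were of mixed genetic background. Strain, doxycycline and the GFP gate went together with the transgene, so their parts in any DNp63 against CD1 difference cannot be told apart.

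Cells make fatty acids from acetyl-CoA that ATP citrate lyase cuts from citrate. Acetyl-CoA carboxylase turns it into malonyl-CoA, and fatty acid synthase joins these units into palmitate, which elongases lengthen, desaturases give double bonds, and acyltransferases tie to glycerol. Cholesterol starts from the same acetyl-CoA through HMG-CoA, mevalonate and squalene, and the SREBP transcription factors control both branches from the endoplasmic reticulum. In the mammary gland the secretory cells of lactation use the fatty acid branch to make milk fat, and the gland itself lies in a fat pad of adipocytes that use it too.

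Recovered depth was 4136995 to 7206700 reads per library, and values are given as reads per 20000000, the scale of the deposited table. Trp63, the gene of the transgene product, stood at 61 and 45 in luminal and 5457 and 7079 in basal CD1 libraries, and 1297 and 1460 in luminal and 8088 and 8306 in basal DNp63 libraries. Summed values of 8 luminal markers were 166284 to 184560 in the 4 luminal libraries and 11948 to 29427 in the 4 basal libraries, and those of 8 basal markers were 1737 to 4159 and 193519 to 214394. The gate labels and these markers went together. The basal libraries came from 5000 sorted cells and the luminal libraries from 40000, so cell input went with the gate. A gene was called when the Benjamini-Hochberg adjusted p of limma's two-sided moderated test over all 16900 genes tested was under 0.05, and a difference is a log2 difference of the value plus 8, which understates the change of genes with low values. Adjusted p-values below are all from this test. The labels do not tie the libraries of a group to separate animals, so the p-values measure only the spread between these libraries, which may be technical. In bulk samples a lower value can come from fewer cells of a type or from less RNA per cell, and these cannot be told apart.

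Some of the lipid synthesis genes differed between the sorting gates in both kinds of mice, in both directions, at a share near that of all genes. In CD1 mice 19 of 34 genes were called between basal and luminal cells, 9 higher and 10 lower in basal, beside 44.3% of all genes tested (24.2% higher and 20.1% lower). Their median difference was -0.21, against -0.01 over all genes. In DNp63 mice 16 of 34 were called, 5 higher and 11 lower in basal, beside 49.2% of all genes (24.9% higher and 24.4% lower), with a median of -0.39 against -0.08. The share of called lipid genes (55.9% in CD1 and 47.1% in DNp63) was near that of all genes. Of the called genes 13 were called in both kinds of mice, all 13 in the same direction, which is 68.4% of the CD1 calls and 81.25% of the DNp63 calls. Over all genes tested 6136 were called in both, 81.9% of the CD1 and 73.7% of the DNp63 calls, and 99.5% of them in the same direction. These comparisons share no library, but both came from the same fit. It estimates the spread of each gene over all 8 libraries, so the calls are not independent. Another 6 genes were called in CD1 mice alone and 3 in DNp63 mice alone, and no member was called in the test of the difference between the gate effects. The ends of the order of size were alike in both, with Elovl4, Thrsp and Acacb highest and Elovl7 lowest. The sign of the difference was the same in both kinds of mice for 26 of the 34 genes. The others, Fdps and Hmgcs1 among them, had opposite signs.

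**Figure D1:**
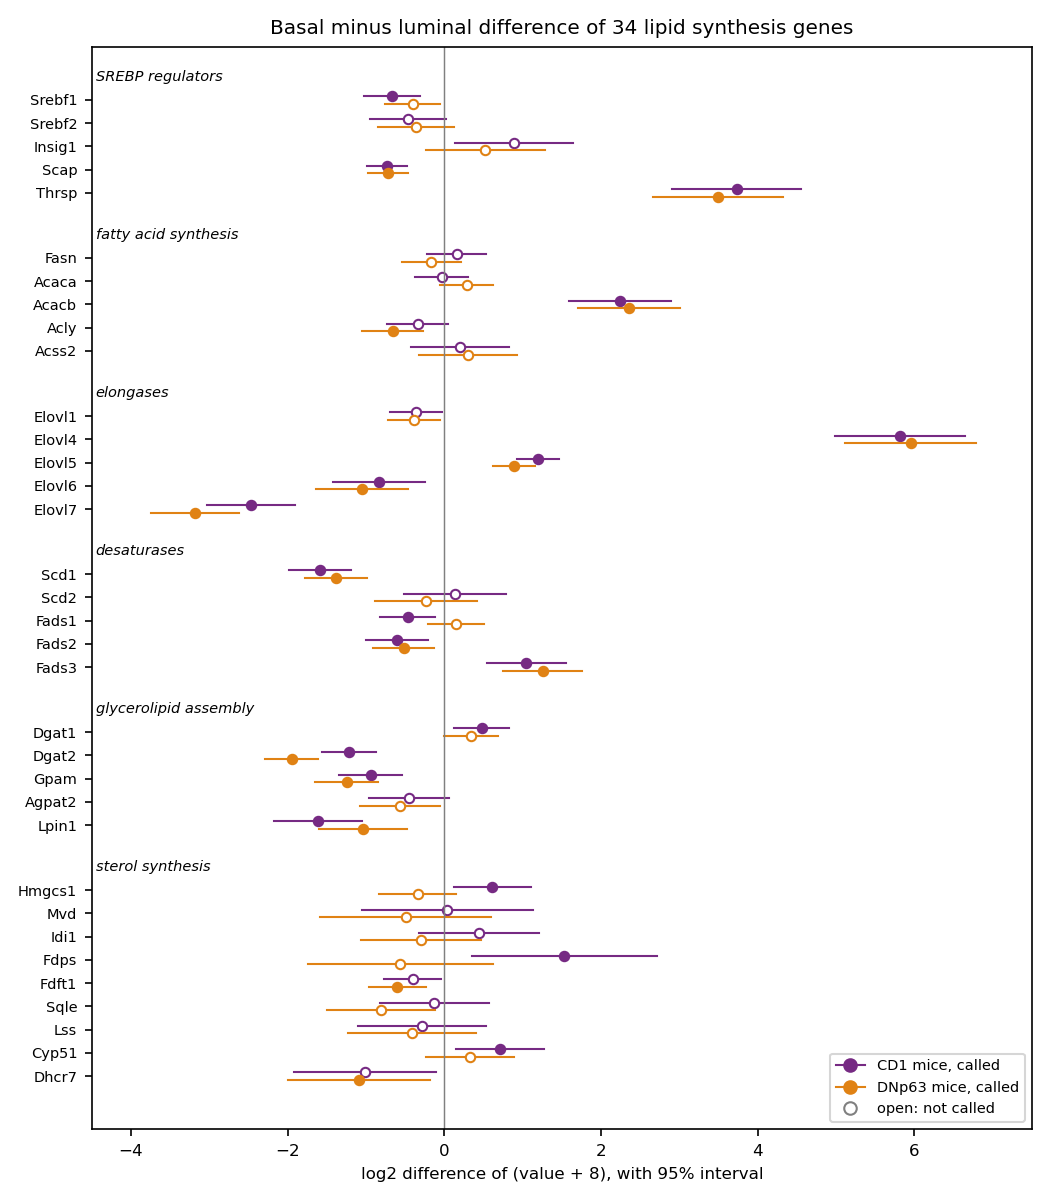
Log2 difference between basal and luminal cells of the 34 tested lipid synthesis genes, grouped by role, with 95% intervals from limma, for CD1 mice (purple) and DNp63 mice (orange). Filled points were called and open points were not, and values above 0 are higher in basal cells. Elovl4 stands furthest to the right (5.82 and 5.95) and Elovl7 furthest to the left (-2.47 and -3.18).

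Among the genes grouped as SREBP regulators, Scap and Srebf1 were lower in CD1 basal cells and Thrsp was much higher. Thrsp is only listed with this group and is a lipogenic gene, not a regulator of SREBPs. Thrsp encodes Spot 14, a small protein that promotes lipogenesis in liver, fat and lactating mammary gland (ENSMUSG00000035686, chromosome 7, 97412938 to 97417730, minus strand, GRCm38). It stood at 18 and 15 in luminal and 293 and 344 in basal CD1 libraries, and 17 and 40 in luminal and 426 and 329 in basal DNp63 libraries. All 4 basal libraries lay above all 4 luminal libraries. The difference was 3.73 in CD1 mice (SE 0.36, adjusted p = 7.84e-05) and 3.49 in DNp63 mice (SE 0.36, adjusted p = 9.68e-05). Because only 9 and 16 reads stood behind the luminal sums, the ratio of reads per depth is the more direct measure. That ratio was 19.6 in CD1 mice, with a 95% counting interval of 10.1 to 43.7, and 14.6 in DNp63 mice, with an interval of 8.76 to 26.2, which cover counting error only. Adipocyte genes moved the same way, as given further on, and their part in the Thrsp difference was not tested. Scap, the escort protein that carries SREBPs to the Golgi when sterols are low, had 1954 and 2045 in luminal and 1209 and 1210 in basal CD1 libraries, and 2254 and 2278 in luminal and 1362 and 1320 in basal DNp63 libraries. It was lower in basal cells by a difference of -0.73 in CD1 (adjusted p = 0.00093) and -0.72 in DNp63 (adjusted p = 0.000889), again without overlap. Srebf1, the gene of the SREBP that drives fatty acid synthesis, was lower in CD1 basal cells at -0.67 (2968 ± 160 against 4714.5 ± 940, SD, n = 2, adjusted p = 0.00806 by limma). In DNp63 mice its difference was -0.40 and was not called (adjusted p = 0.0583), though 5 of 17 alternatives called it, among them those without either CD1 luminal library. Srebf2, the gene of the SREBP that drives cholesterol synthesis, ranged from 3007 to 6064 and was called in neither kind of mice (-0.46 and -0.36). Without the first CD1 basal library it was called in CD1 mice. Insig1, which holds Scap in the endoplasmic reticulum when sterols are plentiful, stood at 373 and 160 in luminal and 495 and 436 in basal CD1 libraries, and 300 and 337 in luminal and 451 and 450 in basal DNp63 libraries. Its basal libraries lay above all luminal libraries, but the differences of 0.89 (adjusted p = 0.058) and 0.52 (adjusted p = 0.225) were not called. It was called in CD1 mice without the first CD1 luminal library, and in DNp63 mice without either CD1 luminal library.

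Of the 5 fatty acid synthesis genes, the mitochondrial carboxylase gene Acacb alone was called in both kinds of mice. Fasn, the gene of fatty acid synthase (ENSMUSG00000025153, chromosome 11, 120805846 to 120824547, minus strand), had 8053 and 5542 in luminal and 7678 and 7390 in basal CD1 libraries, and 8584 and 8467 in luminal and 7785 and 7107 in basal DNp63 libraries. The groups overlapped in CD1 mice. Its basal minus luminal differences were 0.16 in CD1 (95% interval -0.22 to 0.53) and -0.17 in DNp63 (-0.54 to 0.21). The lowest Fasn value was that of the second CD1 luminal library, and without the first CD1 luminal library the CD1 difference was 0.44 and was called (adjusted p = 0.0175). Acaca, the gene of the cytosolic acetyl-CoA carboxylase, ranged from 2464 to 3389 and was not called, with differences of -0.04 (-0.38 to 0.31) and 0.28 (-0.06 to 0.63). Of its transcript words of 50 bases 30.4% also occur in other genes, so its counts are uncertain. Acacb, the gene of the carboxylase at the mitochondrial surface whose product restrains fatty acid import for oxidation (ENSMUSG00000042010, chromosome 5, 114146535 to 114250761, plus strand), was higher in basal cells. It stood at 93 and 141 in luminal and 623 and 531 in basal CD1 libraries, and 100 and 165 in luminal and 730 and 629 in basal DNp63 libraries. The basal libraries were all above the luminal ones, with a difference of 2.24 in CD1 (SE 0.29, adjusted p = 0.000345) and 2.35 in DNp63 (SE 0.29, adjusted p = 0.000222). Acly, which encodes ATP citrate lyase, had 4645 and 3372 in luminal and 3599 and 2755 in basal CD1 libraries, and 4779 and 4746 in luminal and 3052 and 2843 in basal DNp63 libraries. It was called lower in DNp63 basal cells (-0.66, adjusted p = 0.0118), a call that ended without either DNp63 luminal library or without the second DNp63 basal library. In CD1 mice the groups overlapped and the difference of -0.34 was not called (adjusted p = 0.136), though it was without the second CD1 luminal library. Acss2, which makes acetyl-CoA from acetate, ranged from 120 to 232 and was not called.

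The elongases showed the widest split, with some members higher and some lower in the bulk basal libraries than in the luminal ones. Elovl4 makes the very long chain fatty acids of skin barrier and retina (ENSMUSG00000032262, chromosome 9, 83778692 to 83806277, minus strand). It was near 0 in luminal CD1 libraries, at 4 and 0, with 527 and 555 in basal CD1 libraries, and had 25 and 12 in luminal and 1282 and 1900 in basal DNp63 libraries. The basal libraries were far above the luminal ones in both kinds of mice. Behind these values were 1 read in the CD1 luminal libraries together and 254 in CD1 basal, a ratio per depth of 299 with a 95% counting interval of 53.2 to 11855, and 12 and 697 reads in the DNp63 libraries, a ratio of 80.6 with an interval of 45.8 to 157. The fitted differences, 5.82 in CD1 (adjusted p = 8.17e-06) and 5.95 in DNp63 (adjusted p = 5.14e-06), depend on the pseudocount, and moved in CD1 from 4.09 with 32 to 7.29 with 2. Elovl5, which lengthens polyunsaturated fatty acids, was the other elongase that was higher in basal cells. It stood at 1210 and 1234 in luminal and 2848 and 2835 in basal CD1 libraries, and 1235 and 1421 in luminal and 2411 and 2394 in basal DNp63 libraries, with differences of 1.20 (adjusted p = 8.07e-05) and 0.88 (adjusted p = 0.000381).

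Elovl7, an elongase of saturated long chains (ENSMUSG00000021696, chromosome 13, 108214404 to 108285683, plus strand), went the other way. It had 1741 and 1601 in luminal and 371 and 240 in basal CD1 libraries, and 1971 and 1894 in luminal and 253 and 160 in basal DNp63 libraries. Expression fell by 2.47 in CD1 (SE 0.25, adjusted p = 8.62e-05) and fell by 3.18 in DNp63 (SE 0.25, adjusted p = 1.78e-05) on the log2 scale. Elovl6, which lengthens palmitate to stearate, was lower in basal cells by a smaller margin, at -0.84 in CD1 (adjusted p = 0.0272) and -1.05 in DNp63 (adjusted p = 0.00919). The CD1 call of Elovl6 ended without the first CD1 luminal or the second CD1 basal library, and the DNp63 call without the first DNp63 luminal or the second DNp63 basal library. Elovl1, a broadly expressed elongase of very long saturated chains, ranged from 1106 to 1652 and was not called (-0.37 and -0.38, adjusted p = 0.0708 and 0.0564). It was called in CD1 mice without the first CD1 basal library, and in DNp63 mice without either CD1 basal library. Elovl2, an elongase of polyunsaturated chains, and Elovl3, known from skin and brown fat, were too low to be tested, with values of 0 to 39 and 0 to 13. Per kilobase of exon the order of the 5 tested elongases differed between gates. In CD1 luminal cells Elovl1 (587 per kilobase) was followed by Elovl7 (416), Elovl5 (347), Elovl6 (113) and Elovl4 (0.661). In CD1 basal cells Elovl5 (807) came before Elovl1 (462), Elovl4 (179), Elovl7 (76.1) and Elovl6 (64.6), and in DNp63 basal cells Elovl4 reached 526 per kilobase. The summed values of the 7 elongases were nearly the same in all libraries, 5011 to 5939.

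**Figure D2:**
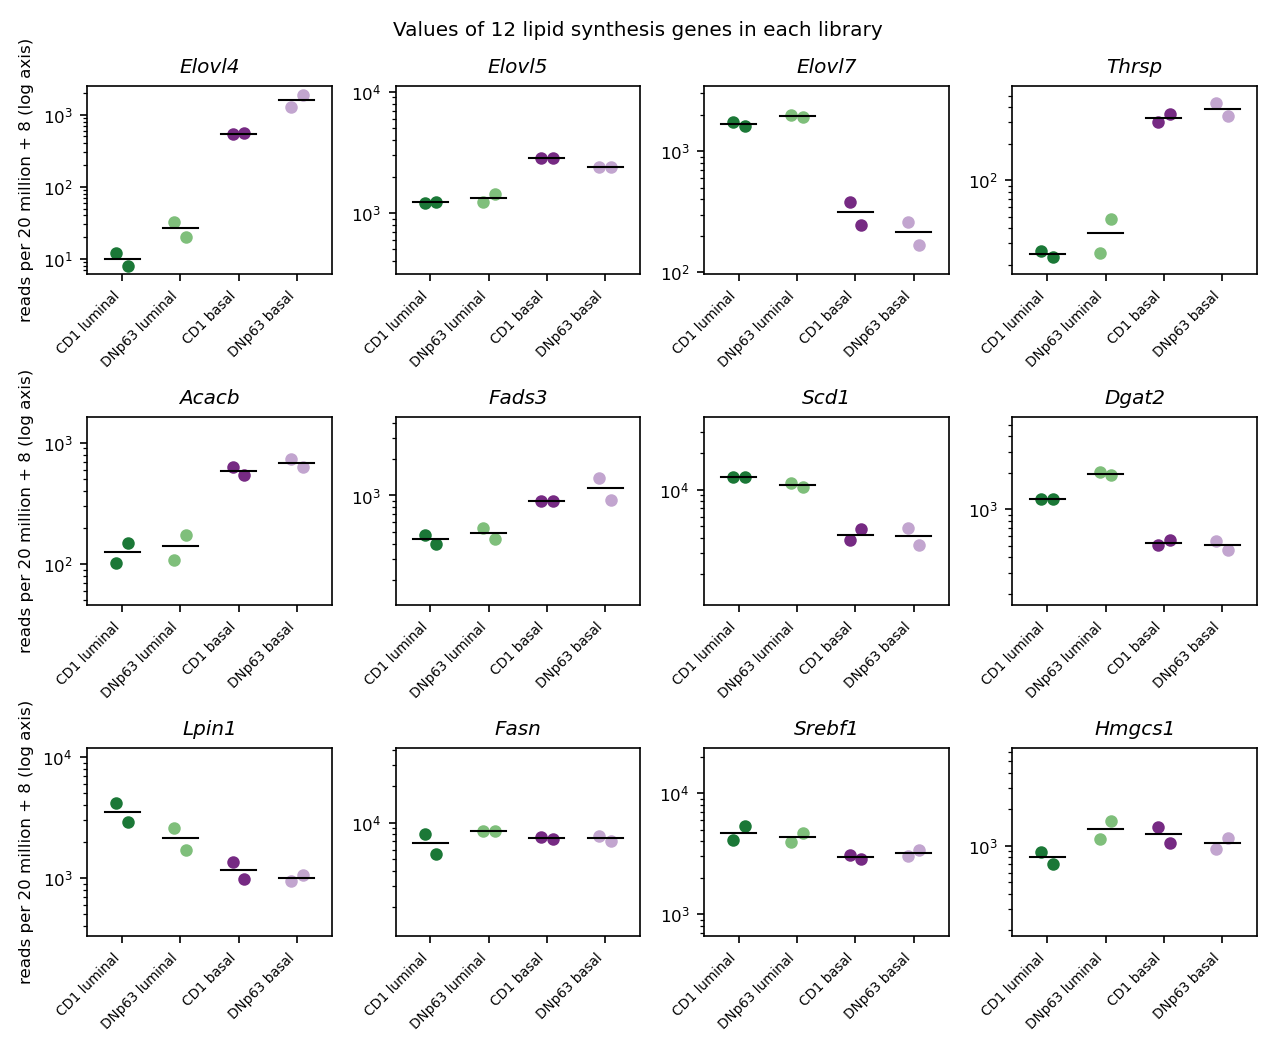
Values of 12 lipid synthesis genes in each of the 8 libraries, as reads per 20000000 plus 8 on log axes that differ between panels. Points are libraries and bars are means of 2 libraries, in green for luminal and purple for basal cells. Elovl4, Elovl5, Thrsp, Acacb and Fads3 lie higher in the basal libraries, Elovl7, Scd1, Dgat2 and Lpin1 lie lower, and Fasn overlaps between the CD1 groups.

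Because Elovl4 and Elovl7 stood at the opposite ends of the gate comparison, the promoters of these genes are shown, from RefSeq on GRCm38.p6, 250 bases before the start of transcription and 50 from it on. Capitals mark a CCAAT box on either strand (CCAAT or ATTGG), the site of NF-Y, a common partner of SREBPs. The Elovl4 window is chr9:83806256-83806555 on the minus strand, and the Elovl7 window is chr13:108214154-108214453 on the plus strand.
Elovl4: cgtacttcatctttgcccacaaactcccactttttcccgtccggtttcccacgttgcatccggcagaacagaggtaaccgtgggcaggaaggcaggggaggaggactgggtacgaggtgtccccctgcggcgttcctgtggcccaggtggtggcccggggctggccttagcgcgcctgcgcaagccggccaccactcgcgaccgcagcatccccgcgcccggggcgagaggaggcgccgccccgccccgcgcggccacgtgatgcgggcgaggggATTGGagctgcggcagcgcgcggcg
Elovl7: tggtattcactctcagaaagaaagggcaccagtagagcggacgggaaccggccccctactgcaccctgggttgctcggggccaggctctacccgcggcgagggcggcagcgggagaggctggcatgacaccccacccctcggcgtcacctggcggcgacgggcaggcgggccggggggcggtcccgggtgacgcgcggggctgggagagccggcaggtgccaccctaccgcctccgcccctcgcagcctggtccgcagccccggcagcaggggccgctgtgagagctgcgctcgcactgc
The Elovl4 window held a CCAAT box 25 bases after the start and the Elovl7 window held none. Across the members, 27 of 36 had at least 1 window in the table, 35 windows in all. A CCAAT box stood in 20 of these 35 windows, and in 37.4% of all 32851 windows of the same length. The sterol response element, searched on both strands as TCACNCCAC, was found in the Hmgcs1 window alone among the members, and in 1.24% of all windows. In the windows printed no match overlaps another. No match means only that these letters are not in the window.

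Among the desaturases, the main enzyme of monounsaturated fat was lower in basal cells and another desaturase gene, Fads3, was higher. Scd1, the stearoyl-CoA desaturase that turns stearate into oleate (ENSMUSG00000037071, chromosome 19, 44394455 to 44407879, minus strand), had 12623 and 12692 in luminal and 3828 and 4691 in basal CD1 libraries, and 11434 and 10467 in luminal and 4847 and 3472 in basal DNp63 libraries. The luminal libraries were all above the basal ones. The difference was -1.59 in CD1 (SE 0.17, adjusted p = 0.000147) and -1.38 in DNp63 (SE 0.17, adjusted p = 0.000272). Per kilobase Scd1 was the highest member, 2587 in CD1 luminal and 871 in CD1 basal cells. Scd2, its paralog, which shares 3.97% of its 50-base words with other genes, was not called between gates (0.13 and -0.24) and ranged from 1919 to 5676. Without the first CD1 luminal library its CD1 difference was 0.65 and was called (adjusted p = 0.0279). Fads3, a member of the fatty acid desaturase cluster, was higher in basal cells, with 465 and 386 in luminal and 898 and 887 in basal CD1 libraries, and 531 and 427 in luminal and 1387 and 909 in basal DNp63 libraries. Its differences were 1.05 (adjusted p = 0.00504) and 1.25 (adjusted p = 0.00182). Its neighbours in the same cluster on chromosome 19 went the other way in CD1 mice. Fads1 and Fads2, the desaturases that make arachidonate and related fatty acids, were lower at -0.47 (adjusted p = 0.0363) and -0.60 (adjusted p = 0.0206). In DNp63 mice Fads2 was lower at -0.52 (adjusted p = 0.034) and Fads1 was not called (0.15, adjusted p = 0.459). The CD1 calls of Fads1 and Fads2 ended without the first CD1 luminal or the second CD1 basal library, that of Fads1 also without any of the 4 DNp63 libraries, and the DNp63 call of Fads2 ended without the second DNp63 luminal or either DNp63 basal library.

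Of the 5 glycerolipid assembly genes, Lpin1, Dgat2 and Gpam were lower in basal cells in both kinds of mice. Lpin1, the phosphatidate phosphatase lipin, had 4149 and 2897 in luminal and 1346 and 967 in basal CD1 libraries, and 2570 and 1687 in luminal and 932 and 1045 in basal DNp63 libraries. Its difference was -1.61 in CD1 (adjusted p = 0.000973) and -1.04 in DNp63 (adjusted p = 0.00817), and the DNp63 call ended without the first DNp63 luminal or the first DNp63 basal library. Dgat2, which adds the last acyl chain of triacylglycerol (ENSMUSG00000030747, chromosome 7, 99153658 to 99182719, minus strand), had 1213 and 1204 in luminal and 495 and 547 in basal CD1 libraries, and 2024 and 1906 in luminal and 540 and 450 in basal DNp63 libraries. The basal groups were alike, while the DNp63 luminal libraries were above the CD1 luminal ones. Its gate difference was -1.22 in CD1 (adjusted p = 0.000275) and -1.95 in DNp63 (adjusted p = 1.7e-05). Gpam, which starts glycerolipid synthesis at the mitochondrion, was lower in basal cells at -0.94 (adjusted p = 0.00283) and -1.25 (adjusted p = 0.000556). Dgat1, the unrelated enzyme that catalyses the same last step as Dgat2, was higher in CD1 basal cells at 0.48 (750 ± 24 against 532 ± 24, SD, n = 2, adjusted p = 0.0324 by limma). This call ended without either CD1 basal library, the first CD1 luminal or the second DNp63 luminal library, and the DNp63 difference of 0.34 was not called (adjusted p = 0.0935). Agpat2, the acyltransferase of the next step after Gpam, ranged from 186 to 383 and was not called (-0.45 and -0.57).

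Of the 9 sterol synthesis genes 3 were called between gates in CD1 mice and 2 in DNp63 mice. These are 33.3% and 22.2%, beside 44.3% and 49.2% of all genes tested. None of the 9 was called in the test of the difference between the gate effects. A call in 1 kind of mice alone therefore does not show that the kinds of mice differed. In CD1 basal cells Hmgcs1, Fdps and Cyp51 were called higher, and in DNp63 basal cells Fdft1 and Dhcr7 were called lower, with none of the 9 called in both in this fit. Hmgcs1, the gene of the cytosolic HMG-CoA synthase (ENSMUSG00000093930, chromosome 13, 119690379 to 119708260, plus strand), had 880 and 704 in luminal and 1406 and 1054 in basal CD1 libraries, and 1133 and 1597 in luminal and 936 and 1156 in basal DNp63 libraries. Its difference was 0.61 in CD1 (adjusted p = 0.0467) and -0.34 in DNp63 (adjusted p = 0.223). Fdps, which makes farnesyl diphosphate, had 8 and 15 in luminal and 78 and 28 in basal CD1 libraries, and 37 and 51 in luminal and 17 and 39 in basal DNp63 libraries. The CD1 luminal libraries were the lowest, with a difference of 1.53 in CD1 (adjusted p = 0.0403) and -0.56 in DNp63 (adjusted p = 0.397), and 26.2% of its 50-base words occur in other genes, so its counts are uncertain. Fdps reached the test minimum of 40 only in the first CD1 basal and the second DNp63 luminal library. Behind its CD1 values were 2 and 4 reads in luminal and 17 and 7 in basal libraries. The CD1 call ended without the filter (adjusted p = 0.0838), with voom (0.0701) and in a fit of these groups alone (0.0705). Dhcr7, which reduces the last double bond on the way to cholesterol, had 419 and 197 in luminal and 202 and 96 in basal CD1 libraries, and 389 and 372 in luminal and 182 and 160 in basal DNp63 libraries. Its difference was -1.02 in CD1, which was not called (adjusted p = 0.068), and -1.09 in DNp63 (adjusted p = 0.0491). In CD1 mice it was called lower without the second CD1 luminal library (-1.53, adjusted p = 0.0137) and without the first CD1 basal library (-1.50, adjusted p = 0.0322). Cyp51, the lanosterol demethylase, was higher in CD1 basal cells at 0.71 (adjusted p = 0.0446), and Fdft1, squalene synthase, was lower in DNp63 basal cells at -0.60 (adjusted p = 0.0136). Mvd, Idi1, Sqle and Lss, enzymes on the way from mevalonate to lanosterol, were called in neither. Each of these 5 sterol calls ended when any of several libraries was left out. These were the second CD1 luminal, both CD1 basal and both DNp63 basal libraries for Hmgcs1, both CD1 luminal and the first DNp63 luminal for Fdps, and the second CD1 luminal, the first CD1 basal and all 4 DNp63 libraries for Cyp51. They were both DNp63 luminal and the second DNp63 basal libraries for Fdft1, and all 4 DNp63 libraries for Dhcr7. Over the alternatives the highest adjusted p was 0.238 for Hmgcs1, 0.157 for Fdps, 0.283 for Cyp51, 0.0937 for Fdft1 and 0.181 for Dhcr7.

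The sterol genes varied together between libraries of the same group in CD1 mice. The first CD1 luminal library was above the second in 8 of 9 sterol genes, by a median ratio of 1.56, and the first CD1 basal library was above the second in 9 of 9, by a median ratio of 1.64. In DNp63 luminal the first library was above the second in 2 of 9, and in DNp63 basal in 3 of 9, with median log2 differences of -0.26 and -0.17. Over all genes tested the first library was above the second in 49.1% of genes in luminal and 44.4% in basal CD1 libraries, and in 52.2% and 51.3% of genes in the DNp63 ones. Mvd, the mevalonate diphosphate decarboxylase gene, stood at 125 and 41 in luminal and 101 and 56 in basal CD1 libraries, and 89 and 102 in luminal and 60 and 68 in basal DNp63 libraries. Sqle, squalene epoxidase, stood at 1309 and 682, 1095 and 695, 1457 and 1914, and 936 and 924 in the same order. A further list of 13 sterol synthesis genes, Msmo1 among them, had the first library above the second in 12 of 13 in CD1 luminal, 10 of 13 in CD1 basal, 2 of 13 in DNp63 luminal and 4 of 13 in DNp63 basal. This pattern was noticed in the data and is given as a description, and its spread enters the errors of the sterol genes, whose standard errors were 0.16 to 0.52 in the comparisons between groups. Over all 34 members the first library was above the second in 73.5% in CD1 luminal and 67.6% in CD1 basal, and the sterol genes count among these. In the other 5 role groups it was above in 3 or 4 of 5 genes in CD1 luminal and in 1 to 4 of 5 in CD1 basal, and the 5 glycerolipid genes were all higher in the first DNp63 luminal library. Fibroblast markers went the other way in CD1 mice, with sums of 9209 in the first and 44838 in the second CD1 luminal library, and 16907 and 46796 in CD1 basal. In DNp63 luminal the sums were 17326 and 10036, again opposite to most sterol genes. In DNp63 basal they were 69875 and 92869, in the same direction as most sterol genes. The part of fibroblasts in the sterol differences was not tested.

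**Figure D3:**
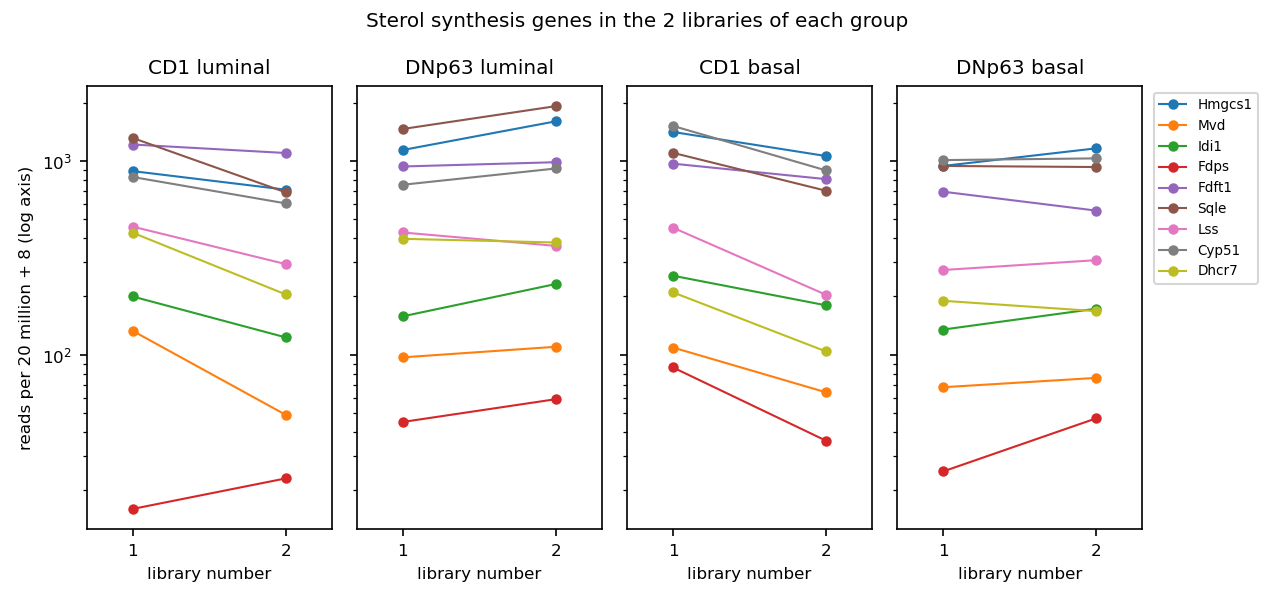
Values of the 9 sterol synthesis genes in the 2 libraries of each group, as reads per 20000000 plus 8 on a log axis. Lines join the values of a gene in the 2 libraries of a group and imply no order. In the CD1 panels the first library is higher for 8 of 9 and 9 of 9 genes, and in the DNp63 panels for 2 of 9 and 3 of 9.

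The promoters of Hmgcs1 and Mvd are shown because both belong to the sterol genes that differed between CD1 libraries, and because Hmgcs1 held the only sterol response element found among the members. Capitals mark that element and CCAAT boxes on either strand. The Hmgcs1 window is chr13:119690101-119690400 on the plus strand, and the Mvd window is chr8:122443373-122443672 on the minus strand, both from RefSeq on GRCm38.p6.
Hmgcs1: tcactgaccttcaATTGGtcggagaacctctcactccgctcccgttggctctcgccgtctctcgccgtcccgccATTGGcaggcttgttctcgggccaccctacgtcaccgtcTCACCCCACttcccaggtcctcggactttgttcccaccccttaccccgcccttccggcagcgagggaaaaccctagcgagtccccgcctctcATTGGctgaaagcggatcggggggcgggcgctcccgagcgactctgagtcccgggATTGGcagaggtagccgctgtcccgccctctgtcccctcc
Mvd: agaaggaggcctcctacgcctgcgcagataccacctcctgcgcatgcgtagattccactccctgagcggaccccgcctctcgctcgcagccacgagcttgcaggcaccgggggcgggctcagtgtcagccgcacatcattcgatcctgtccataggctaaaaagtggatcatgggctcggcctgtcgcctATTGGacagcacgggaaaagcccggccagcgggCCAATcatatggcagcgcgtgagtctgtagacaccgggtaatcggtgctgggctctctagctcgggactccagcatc
In the Hmgcs1 window the sterol response element lay 137 bases before the start, and CCAAT boxes lay 237, 176 and 45 bases before it and 10 bases after it. In the Mvd window CCAAT boxes lay 60 and 27 bases before the start.

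In luminal cells the DNp63 libraries were set against CD1 to ask how lipid genes stood where DNp63 had been switched on. None of the 34 genes was called by limma, beside 4.43% of all genes, and 7 of the 34 (20.6%) had an unadjusted p under 0.05, near the 17.2% of all genes. The median difference was 0.10, against 0.01 over all genes. Dgat2 came closest, with an adjusted p of 0.0502 at a difference of 0.64 (95% interval 0.30 to 0.98). Both DNp63 luminal libraries, at 2024 and 1906, were above the CD1 luminal libraries at 1213 and 1204, and 4 of 17 alternatives called it, voom on recovered reads among them (adjusted p = 0.0271). Elovl4 had a difference of 1.36 (SE 0.37, adjusted p = 0.0821), on 12 reads against 1, a ratio per depth of 10.8 with a counting interval of 1.59 to 459.7. Scd2 stood at 5676 and 5478 in DNp63 luminal against 3887 and 1919 in CD1 luminal, a difference of 0.97 that was not called (adjusted p = 0.112). Lpin1 had -0.79 (adjusted p = 0.133), Hmgcs1 0.71 (adjusted p = 0.122), Fdps 1.38 (adjusted p = 0.212) and Sqle 0.76 (adjusted p = 0.247). The result for Scd2, Sqle and Fasn rested on the first CD1 luminal library, whose values lay nearer to those of the DNp63 libraries, and the second is the one with the high fibroblast sum given above. With the first CD1 luminal library left out, that second library alone stood for CD1 luminal cells. The differences were then 1.48 for Scd2, 1.22 for Sqle and 0.56 for Fasn, against 0.97, 0.76 and 0.29 with all libraries. For Fasn the interval with all libraries was -0.08 to 0.67, and for Acaca -0.51 to 0.18.

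In basal cells none of the 34 genes was called by limma either, beside 0.716% of all genes, and 4 of 34 (11.8%) had an unadjusted p under 0.05, near the 11.2% of all genes. The median difference was -0.09, against -0.04 over all genes. Elovl4 had the lowest adjusted p, 0.142, with 1282 and 1900 in DNp63 basal against 527 and 555 in CD1 basal, a difference of 1.50 (0.67 to 2.33). Its libraries did not overlap, and voom on recovered reads (1.52, adjusted p = 0.0321), a pseudocount of 32 (1.46, adjusted p = 0.0429) and a fit of these groups alone (1.50, adjusted p = 0.0311) called it. With all 17 alternatives its adjusted p ranged from 0.0311 to 0.71. Fdft1 had -0.53 (adjusted p = 0.246), Fads1 0.44 (adjusted p = 0.313) and Elovl7 -0.57 (adjusted p = 0.442). Fasn differed by -0.03 (-0.41 to 0.34), Scd1 by -0.06 (-0.46 to 0.33) and Srebf1 by 0.09 (-0.27 to 0.44).

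The difference between the basal and the luminal DNp63 effect, tested as an interaction by limma, gave no called member, beside 0.343% of all genes, and 4 of 34 (11.8%) with an unadjusted p under 0.05, near the 10.5% of all genes. Dgat2 had the lowest adjusted p, 0.218, at -0.73 (-1.21 to -0.25). Hmgcs1 had -0.95 (adjusted p = 0.27), Fads1 0.62 (adjusted p = 0.336) and Fdps -2.09 (adjusted p = 0.328). With 2 libraries a group, a difference that misses the threshold does not show that values were equal.

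**Figure D4:**
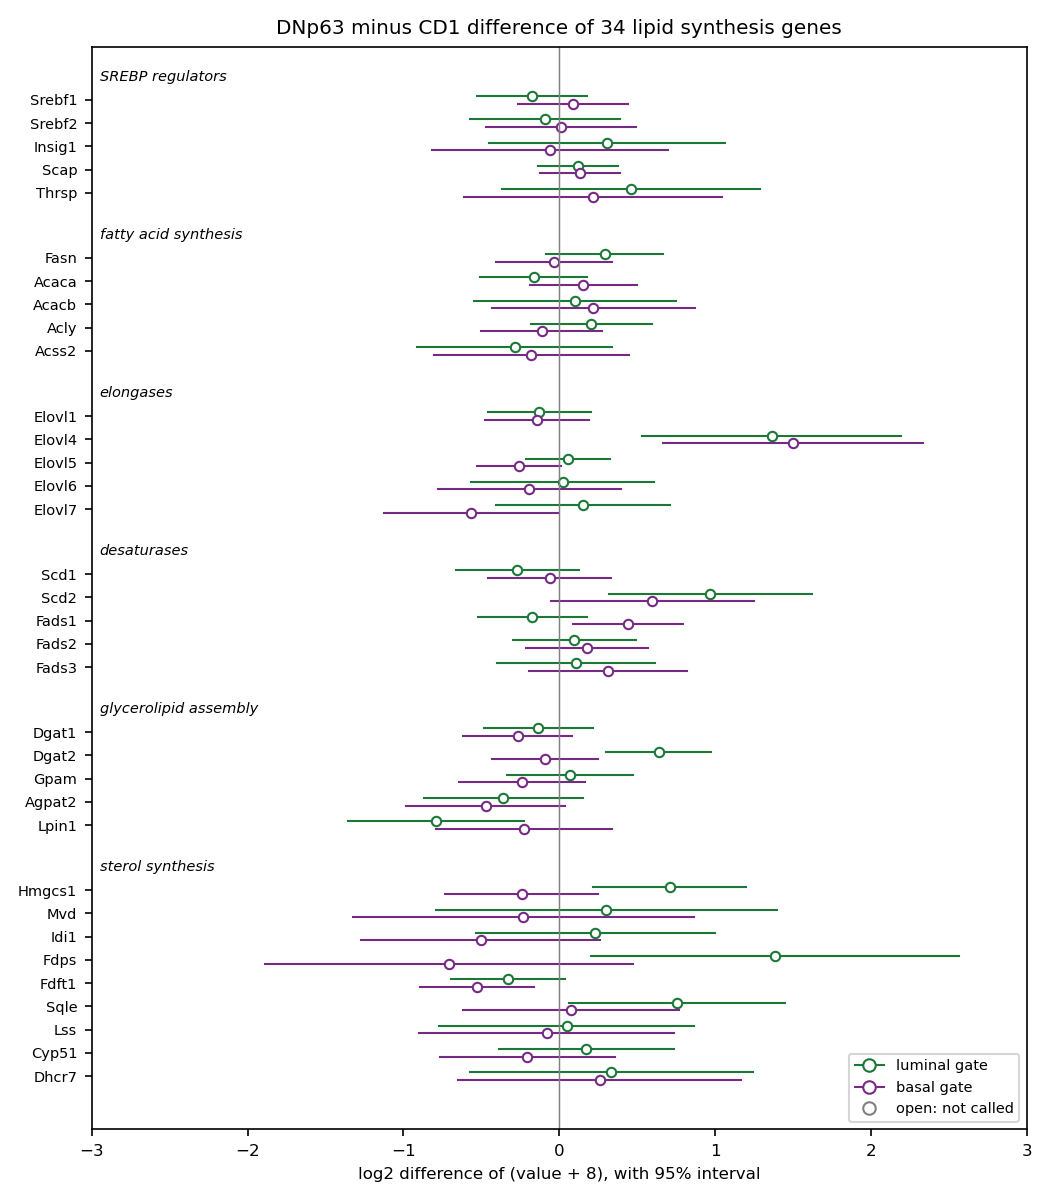
Log2 difference between DNp63 and CD1 cells of the 34 tested lipid synthesis genes with 95% intervals from limma, in the luminal gate (green) and the basal gate (purple). All points are open because none was called. Elovl4 has the highest difference in the basal gate (1.50), and Fdps (1.38) and Elovl4 (1.36) have the highest in the luminal gate.

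Other genes of lipid handling, 91 in 7 lists of which 84 were tested, were set beside the synthesis genes. In CD1 mice 16 were higher and 29 lower in basal cells (53.6% called, beside 44.3% of all genes), with a median of -0.22 against -0.01 over all genes. In DNp63 mice 19 were higher and 30 lower (58.3% called, beside 49.2%), with a median of -0.29 against -0.08. The counts of the single lists below stand beside the same background in CD1 mice, 24.2% of all genes higher and 20.1% lower. Of the genes of milk fat uptake and secretion 5 of 12 were higher and 6 lower in CD1 basal cells. Cd36, a fatty acid uptake receptor of capillaries and adipocytes, was the highest of these, with 635 and 604 in CD1 luminal against 39115 and 43235 in CD1 basal (6.02, adjusted p = 5.25e-07). Btn1a1, butyrophilin of the milk fat globule membrane, was the lowest at -3.70 (adjusted p = 0.000222). Of the fatty acid synthesis support genes 3 of 13 were higher and 7 lower, with Hacd1, a dehydratase of the elongation cycle, at 2.49 and Me1, malic enzyme that makes NADPH, at -1.24. Of 13 glycerolipid genes 1 was higher, Agpat4 (2.55), and 7 were lower, led by Gpd1, which makes glycerol phosphate (-1.79). Of 5 genes of sterol efflux and esterification 3 were higher, led by Apoe, apolipoprotein E (3.62), and 1 was lower, the sterol exporter Abcg1 (-0.88). Of 16 genes of SREBP control and sterol uptake 4 were higher and 2 were lower, with Mbtps2, the protease that frees SREBPs in the membrane, at -0.76. Of 13 further sterol synthesis genes 2 were lower, and of 12 fatty acid oxidation genes 4 were lower, led by Cpt1a (-0.97).

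Of the 84 genes tested in the 7 lists, Btn1a1 alone (1.19%) was called between DNp63 and CD1 mice, and in both gates. Its values were 5337 and 8580 in CD1 luminal against 944 and 1918 in DNp63 luminal (-2.38, adjusted p = 0.0191), with 536 and 500 in basal CD1 libraries against 51 and 131 in basal DNp63 libraries (-2.55, adjusted p = 0.0423). Most markers of alveolar cells, the secretory luminal lineage, moved with it. Summed values of the 8 alveolar markers were 109705 and 116779 in CD1 luminal against 14813 and 24285 in DNp63 luminal. In the basal gate they were 14191 and 14591 in CD1 against 965 and 1375 in DNp63. Of 6 alveolar markers tested 5 were lower in each gate, and none of the 34 lipid synthesis genes was called. All counts of this paragraph stand beside 4.43% of all genes called in the luminal and 0.716% in the basal gate. With so few calls over all genes, no call among 34 does not set the lipid genes apart. Milk protein genes made up most of the alveolar sums. Elf5, the tested alveolar marker that is not a milk protein gene, changed least in the luminal gate and was not called there. It had 3415 and 3731 in CD1 luminal against 2518 and 3588 in DNp63 luminal, and 358 and 292 in CD1 basal against 119 and 175 in DNp63 basal. In the basal gate other luminal markers were lower too. Of 8 luminal markers 6 were called lower in DNp63 basal cells, with sums of 29427 and 23822 in CD1 against 11948 and 13468, as were 4 of 6 markers of hormone-sensing luminal cells, with 19518 and 18371 against 6404 and 6925. In the luminal gate 1 of the 8 luminal markers was called lower and 1 higher, and none of the 6 hormone-sensing markers was called by limma (none had an unadjusted p under 0.05). The part of alveolar and other luminal cells in the values of Btn1a1 and the lipid genes was not tested.

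Markers of adipocytes, endothelium and pericytes were higher in the basal gate, while at most 4 of 10 fibroblast and 3 of 8 immune markers were called higher, and these values stand beside each basal against luminal result above. Of 14 adipocyte markers 12 were higher and 1 lower in CD1 basal cells, and 10 higher and 1 lower in DNp63 basal cells. Their summed values were 3415 to 6434 in the luminal libraries and 21567 to 38249 in the basal libraries, where most of it was Fabp4, which capillary endothelium also expresses. Adipoq, the defining adipocyte hormone adiponectin, was low throughout, with 4, 8, 6 and 0 in the luminal libraries and 37, 160, 68 and 78 in the basal libraries. Lep, leptin, was at 0 in all 4 luminal libraries and at 60, 108, 47 and 5 in the basal libraries. Plin1, which coats fat droplets, stood at 0 to 4 and 34 to 100. Of 14 endothelial markers 13 were higher in basal cells in each kind of mice, with sums of 3712 to 4893 in luminal and 52228 to 73676 in basal libraries, although CD31-positive cells had been sorted out. Of 8 pericyte markers 7 were higher in each, and 1 was lower in DNp63 mice, with sums of 4232 to 5839 and 17385 to 23213. Fibroblast sums were 9209 to 44838 in luminal and 16907 to 92869 in basal libraries, with overlap between the CD1 gates, 0 of 10 markers called by limma in CD1 mice (1 with an unadjusted p under 0.05) and 4 of 10 higher in DNp63 mice. Immune sums were 1242 to 2113 and 1837 to 4269, with 2 and 3 of 8 tested markers higher. The part of these cells in the higher basal values of Elovl4, Elovl5, Thrsp, Acacb and Fads3 was not tested.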

How the data were processed

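Bulk RNA-seq of sorted mammary cells was read from the table deposited by the authors. The unit is a score: the authors brought each library's gene counts to a total of 20000000 and, judging by the numbers, rounded up (the labels give only a short name of the table). Per the submitters' processing notes, STAR, HTSeq and GRCm38 (mm10) were used, and neither versions nor strandedness are stated in the sources used here. Reads were recovered by dividing by the value of 1 read in each library, and 99.8% to 99.9% of values came out whole within rounding, against 20.7% to 36.0% by chance, at a depth of 4136995 to 7206700 reads. The libraries within each group differed beyond sampling noise, with chi-square over its degrees of freedom at 6.34 to 16.5. Coordinates and exon lengths are from GENCODE M21, which held 49326 of the 49671 genes.

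Values were divided by TMM factors (trims of 30% and 5%), a pseudocount of 8 was used, and limma 3.58.1 (R 4.3.3) was run on the log2 scale with a mean for each of the 4 groups and an intensity trend. There were 4 degrees of freedom from residuals and 4.69 from the prior. A gene entered the test if 2 or more libraries reached 40. The fit was also run on simulated reads with the same spread setting for every gene. That is a check of the code and does not test the spread between these libraries. Alternatives were pseudocounts of 2 and 32, no filter, a minimum of 200, other scalings, voom on recovered reads, a fit of the groups compared, a replicate block, and leaving out each library. Members and lists were chosen with earlier results of these data known. Per-library values were planned for members called between DNp63 and CD1 and for the 2 members of each role with the largest CD1 gate difference. Scap, Fasn, Elovl5, Scd2, Hmgcs1, Mvd and Sqle were added after their values were seen. From each other list, the genes named are those called with the most positive and the most negative difference. Msmo1 is named as an example without values. Some genes that this rule would name are not reported here. Shared words are transcript words of 50 bases that also occur in transcripts of other genes.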

Additional observations from a re-analysis of the deposited data

How the results depend on the processing

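Of the 19 lipid genes called between CD1 gates, 12 were called in every alternative that could be run (Acacb, Scd1, Fads3, Elovl4, Elovl5, Elovl7, Dgat2, Gpam, Lpin1, Srebf1, Scap and Thrsp), and of the 16 called between DNp63 gates 10 (these without Lpin1 and Srebf1). Counts of called lipid genes with each library left out in turn were 14 to 18 between CD1 gates, 11 to 19 between DNp63 gates, 0 to 3 in DNp63 against CD1 luminal cells, and 0 in the basal comparison and the interaction. Called lipid genes in DNp63 against CD1 luminal cells numbered 1, Dgat2, with a pseudocount of 32, a minimum of 200, no further scaling or voom, and in basal cells 1, Elovl4, with a pseudocount of 32, voom or a fit of these groups alone. Over all genes, DNp63 against CD1 luminal gave 749 calls, 442 without a filter, 40 in a fit of these groups alone, and 142 to 985 with a library left out. DNp63 against CD1 basal gave 121 (33 higher and 88 lower), 45 without a filter, 65 with voom (41 higher and 24 lower), and 3 to 190 with a library left out. The interaction gave 58 (14 higher and 44 lower), 116 with a pseudocount of 32, 10 without a filter, 22 with voom (8 higher and 14 lower), and 4 to 163 with a library left out. The causes were not tested. The labels do not say that a shared replicate number marks the same animal, and with 2 numbers the data cannot settle it. Deviations of same-numbered libraries correlated at 0.341 between CD1 gates and 0.267 between DNp63 gates, a hint of pairing within a kind of mouse, and at -0.014 to 0.040 otherwise. The replicate block fitted a single shift per gene between replicate numbers, shared by CD1 and DNp63 mice. It therefore did not model a pairing within a kind of mouse, and no such pairing was fitted. With this block the called lipid genes numbered 20 between CD1 gates, 18 between DNp63 gates and 0 in the other tests, and all genes called 203 in DNp63 against CD1 basal and 128 in the interaction. In CD1 mice the block added Dhcr7 (-1.02, adjusted p = 0.0252), which was then called lower in both kinds of mice, and Insig1 (0.0466), and ended the call of Hmgcs1 (0.0512). In DNp63 mice it added Srebf1 (0.0321) and Sqle (-0.81, 0.0393). Among 2831 values of single genes under alternatives, 37 gained a call, 69 lost it and none that was called changed direction. With no further scaling the median of all genes between DNp63 gates was -0.11 in place of -0.08. Depth limits Elovl4, Thrsp and Fdps in luminal cells, where few reads stood behind each value.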
